A study of Mus musculus with 6 samples.

Results

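The 10 genes described here encode the machinery that makes, transports and displays peptides on MHC class I molecules. They are H2-K1, H2-D1, B2m, Tap1, Tap2, Tapbp, Psmb8, Psmb9, Psmb10 and Nlrc5. They were chosen by symbol for their role in this pathway, though with earlier results of these data known. The 10 are among 30803 rows of values per library, which hold 30733 distinct symbols. Each symbol was found, and every member lay above 1 FPKM (fragments mapped to a transcript, per kilobase of its length and relative to the depth of the library) in all 6 libraries. RNA sequencing was done on bone marrow cells labelled as hematopoietic stem cells, the cells from which blood lineages arise. The cells came from wild-type (WT) mice aged 12 months, with no further allele or treatment in the labels, and were divided by surface MHC class II into a fraction with a high level (MHCII-hi, 3 libraries) and a fraction with a low level (MHCII-lo, 3 libraries). The comparison asks how the class I genes stand in cells that differ in class II. The transcripts of the sorted protein checked the labels: H2-Aa, a class II alpha chain, averaged 13.7 ± 1.09 FPKM in MHCII-hi and 7.60 ± 0.533 FPKM in MHCII-lo (SD, n = 3 each).

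MHC class I molecules sit on nearly all nucleated cells and show peptides from the cell's own proteins to CD8 T cells and natural killer cells. The proteasome cuts the peptides, the TAP transporter carries them into the endoplasmic reticulum, and tapasin helps load them onto a heavy chain paired with beta-2-microglobulin. Interferon-gamma exchanges the catalytic subunits of the proteasome for the immunoproteasome subunits and raises most of these genes, and NLRC5, a relative of the class II transactivator CIITA, acts at their promoters. Blood stem and progenitor cells carry class I at their surface as well.

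The sums of the FPKM values were 344421 to 346651 in MHCII-hi and 327364 to 327945 in MHCII-lo, of which the top 10 genes held 19.4 to 19.5% in MHCII-hi and 11.6 to 11.8% in MHCII-lo. Neutrophil markers were higher in MHCII-hi for 18 of 18 genes, and took 15.9 to 16.0% of summed FPKM in MHCII-hi and 2.83 to 2.86% in MHCII-lo. FPKM are shares of a library, so a set of abundant genes that takes more of it lowers the values of the others. Dendritic cell markers summed to 168 to 172 FPKM in MHCII-hi and 312 to 320.3 FPKM in MHCII-lo, and monocyte and macrophage markers to 408 to 433 FPKM in MHCII-hi and 647 to 655 FPKM in MHCII-lo. Mast cell and basophil markers summed to 416 to 424 FPKM in MHCII-hi and 854 to 882 FPKM in MHCII-lo, and erythroid markers to 200.5 to 205 FPKM in MHCII-hi and 278 to 286 FPKM in MHCII-lo. T and NK cell markers summed to 157 to 166 FPKM in MHCII-hi and 185 to 194 FPKM in MHCII-lo. Plasma cell markers summed to 322 to 329.6 FPKM in MHCII-hi and 253 to 256 FPKM in MHCII-lo, and B cell markers to 16.7 to 17.4 FPKM in MHCII-hi and 13.0 to 15.0 FPKM in MHCII-lo. The part of these markers in the values below was not tested, apart from a scaling without the neutrophil markers. No gene of these lists was at 0 in all 6 libraries, but 6 of the 10 stem cell markers, among them Procr and Slamf1, averaged under 1 FPKM. In bulk samples, fewer cells of a type and less RNA per cell cannot be told apart. The labels do not say whether the libraries of a fraction stem from different mice, so the p-values measure the spread between libraries, which may be technical. The number of reads behind each FPKM value is unknown.

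The promoters of the class I genes are shown first because the members share short motifs there. RefSeq windows of the build GRCm38.p6, from 250 bases before to 50 bases after the start site, were matched for 8 of the 10 members; Tap2 and Nlrc5 are named only. Capitals mark matches, on either strand, to the interferon-stimulated response element (GAAA repeated after 2 bases of any kind), the gamma-activated site TTCNNNGAA, the CCAAT box (CCAAT or its reverse complement ATTGG), the TGACG core of the X2 box (or CGTCA) and the NF-kappaB consensus. The 3 genes of the class I molecule itself are chr17:34000298-34000597 on the minus strand for H2-K1, chr17:35262844-35263143 on the plus strand for H2-D1 and chr2:122147437-122147736 on the plus strand for B2m.
H2-K1: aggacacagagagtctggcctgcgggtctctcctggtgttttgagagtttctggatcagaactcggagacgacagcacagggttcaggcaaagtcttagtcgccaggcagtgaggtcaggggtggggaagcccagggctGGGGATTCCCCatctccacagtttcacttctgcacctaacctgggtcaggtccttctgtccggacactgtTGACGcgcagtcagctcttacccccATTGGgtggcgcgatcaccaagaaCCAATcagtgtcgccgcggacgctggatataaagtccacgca
H2-D1: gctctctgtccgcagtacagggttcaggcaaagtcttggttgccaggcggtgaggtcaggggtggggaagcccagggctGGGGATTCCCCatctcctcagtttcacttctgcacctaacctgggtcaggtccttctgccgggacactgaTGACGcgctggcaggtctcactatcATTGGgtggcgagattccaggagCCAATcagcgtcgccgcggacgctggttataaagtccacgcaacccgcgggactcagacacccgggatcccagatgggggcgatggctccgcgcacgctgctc
B2m: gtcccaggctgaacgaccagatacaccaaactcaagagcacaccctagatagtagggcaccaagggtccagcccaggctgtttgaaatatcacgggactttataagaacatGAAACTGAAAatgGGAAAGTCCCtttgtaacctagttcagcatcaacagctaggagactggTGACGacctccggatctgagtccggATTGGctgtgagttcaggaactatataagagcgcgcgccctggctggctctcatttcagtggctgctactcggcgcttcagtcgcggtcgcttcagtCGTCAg
In each of the 3, TGACG stood 25 bases before ATTGG on the gene's strand, counted between their first bases, and an NF-kappaB match lay further upstream. The spacing was noticed after the sequences were seen and occurs in 16 of 27025 genes with a window (0.0592%), a set that also holds H2-M3, a class I-like heavy chain. The H2-K1 and H2-D1 windows were 89.5% identical over 239 aligned bases, so their matches are not independent, and within each heavy chain window the NF-kappaB match is a run of overlapping matches on both strands. The B2m window also held a match to the interferon-stimulated response element pattern searched here. This match spans positions −139 to −130 from the start site, just upstream of the NF-kappaB match at −126 to −117.

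The transporter and proteasome genes of the class II region are shown next because Tap1 and Psmb9 share a promoter. The windows are chr17:34187306-34187605 on the plus strand for Tap1 and chr17:34197945-34198244 on the plus strand for Psmb8. The Psmb9 window, on the other strand, covers 275 of the same bases as that of Tap1, and the 2 start sites lie 226 bases apart.
Tap1: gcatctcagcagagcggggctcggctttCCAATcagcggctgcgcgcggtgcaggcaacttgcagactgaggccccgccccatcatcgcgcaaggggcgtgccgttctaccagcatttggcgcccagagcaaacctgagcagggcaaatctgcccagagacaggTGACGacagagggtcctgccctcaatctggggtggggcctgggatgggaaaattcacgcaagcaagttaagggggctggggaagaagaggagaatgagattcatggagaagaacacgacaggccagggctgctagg
Psmb8: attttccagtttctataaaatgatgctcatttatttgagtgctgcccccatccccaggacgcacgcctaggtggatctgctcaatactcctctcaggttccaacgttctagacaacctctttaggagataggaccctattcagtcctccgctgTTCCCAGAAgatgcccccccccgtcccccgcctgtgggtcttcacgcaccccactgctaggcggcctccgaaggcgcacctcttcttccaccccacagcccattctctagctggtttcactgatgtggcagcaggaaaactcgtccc
The Tap1 window, and so the Psmb9 one, held a CCAAT box and a TGACG core, at a different distance from each other than in the heavy chain genes. The Psmb8 window held the TTCNNNGAA site and no other match, and the Psmb10 window held none. Over the 8 windows, NF-kappaB matches were in 3, CCAAT in 6, TGACG in 5, the interferon-stimulated response element in 1 and TTCNNNGAA in 1. The 8 windows are not independent, so these counts overstate the number of separate sites. Tap1 and Psmb9 each count the same CCAAT and TGACG bases, and the H2-K1 and H2-D1 windows are near copies. Among all 32851 windows the shares were 8.46% for NF-kappaB, 37.4% for CCAAT, 20.8% for TGACG, 3.44% for the interferon-stimulated response element and 8.30% for TTCNNNGAA. A match describes letters in these windows and is not a measured binding site. The patterns are fixed, so a window without a match may still hold a variant form of the element.

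Of the 10 members, 9 were lower and 1, H2-D1, was higher in MHCII-hi by limma at a Benjamini-Hochberg adjusted p under 0.05 over 12049 genes. Over all tested genes, 60.9% passed the test, 40.5% as lower and 20.3% as higher, so passing it was common in this comparison. The values of the 2 fractions did not overlap for any of the 10 members, as for 67.6% of all tested genes (45.0% lower and 22.6% higher in MHCII-hi). The median log2 fold change of the members, the log2(FPKM + 1) of MHCII-hi minus that of MHCII-lo, was −0.34, beside −0.12 over all tested genes. That scale understates the change of genes with low values. The members' median thus lay 0.22 (log2) under that of all genes, while Tap2 lay at the middle of all genes and H2-D1 above it.

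The level per transcript length had nearly the same order in both fractions. In MHCII-hi it ran B2m, H2-D1, H2-K1, Psmb8, Tap2, Tapbp, Psmb10, Tap1, Psmb9 and Nlrc5, and only Psmb8 and Tap2 overlapped among neighbours. In MHCII-lo it ran B2m, H2-D1, H2-K1, Psmb8, Tapbp, Psmb10, Tap2, Tap1, Psmb9 and Nlrc5, where Psmb10 overlapped both Tapbp and Tap2. In both fractions the 3 genes of the class I molecule stood far above the processing genes, and the regulator Nlrc5 was lowest.

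**Figure D1:**
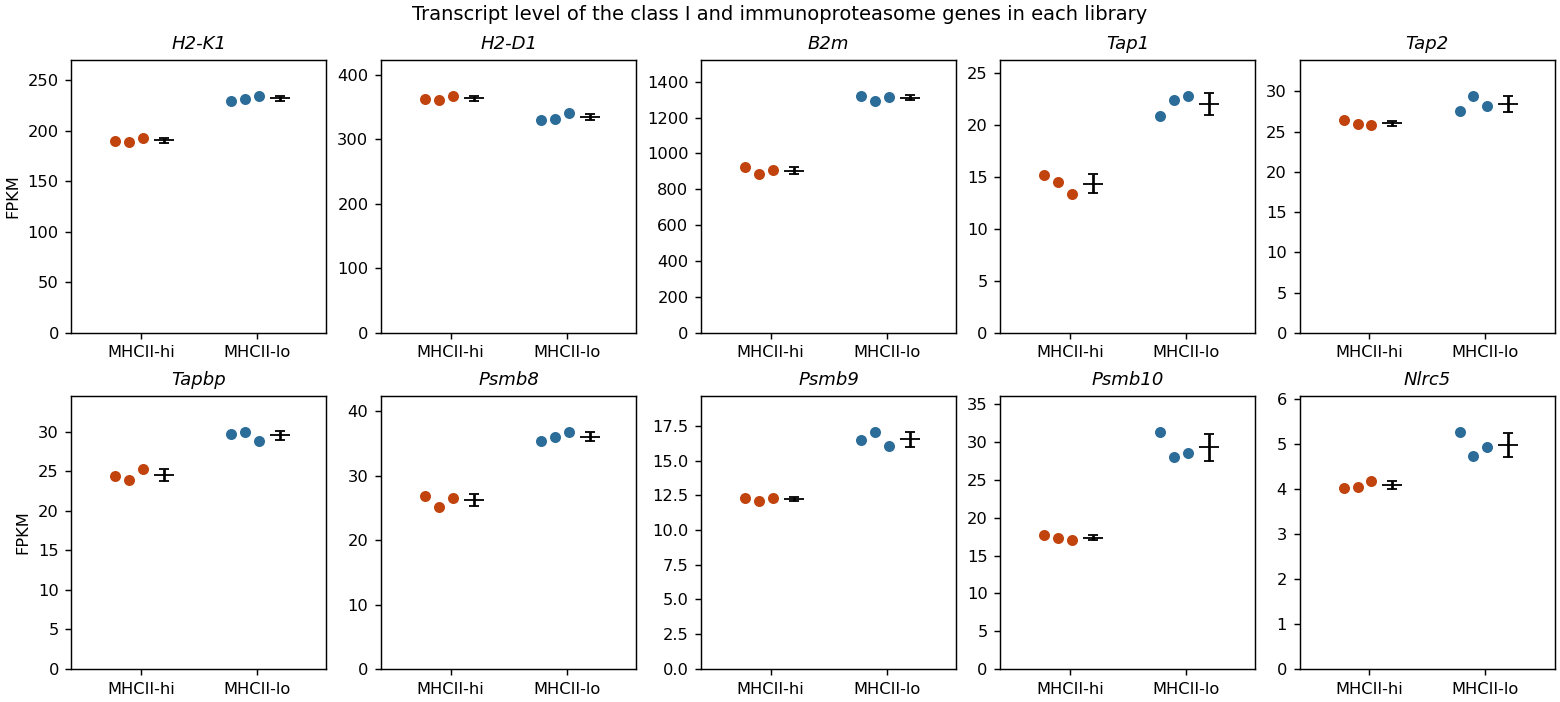
FPKM (vertical axes from 0, a scale per gene) of the 10 members, MHCII-hi left of MHCII-lo; points are libraries and bars mark the mean ± SD of 3. No member has overlapping fractions, and only H2-D1 is higher in MHCII-hi.

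The 2 classical heavy chains, which hold the peptide, differed in direction. H2-K1 had 190.3, 188.7 and 193 FPKM in MHCII-hi, against 229.8, 232 and 235 FPKM in MHCII-lo. All 3 MHCII-hi libraries were low, with a log2 fold change of −0.28 (SE 0.0182, limma adjusted p = 1.88e-05) and a fall of 17.8% in mean FPKM. H2-D1 had 362, 360.2 and 367 FPKM in MHCII-hi, against 330.3, 332 and 339.8 FPKM in MHCII-lo. Here all 3 MHCII-hi libraries were high, with a log2 fold change of 0.12 (SE 0.0178, limma adjusted p = 0.00104), or 8.78% in mean FPKM. Within a library, the ratio of H2-K1 to H2-D1 does not depend on the scaling of that library. It was 0.525, 0.524 and 0.526 in MHCII-hi, against 0.696, 0.698 and 0.691 in MHCII-lo. These values did not overlap, and their log2 difference was −0.40 (two-sided exact permutation p = 0.1, the smallest that 3 against 3 can give; adjusted over 7 ratios 0.117).

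The heavy chains are a gene family with near-identical copies, so reads may be shared. The H2-K1 and H2-D1 transcripts were 90.5% identical in a global alignment. Of the windows of 50 bases along H2-D1, 14.3% occurred in another gene, most often H2-Q1 (7.40%); for H2-K1 the share was 8.79%, most often with H2-D1 (6.94%). How the submitters' quantification divided such reads is not stated, and their part in the opposite directions was not tested. H2-K1 lies at chromosome 17, 33996017 to 34000347 on the minus strand, and H2-D1 at chromosome 17, 35262730 to 35267499 on the plus strand (GRCm38, GENCODE M21). Between them, 54 of 132 other genes were tested, of which 15 (27.8%) were higher and 19 (35.2%) lower in MHCII-hi. Over all tested genes, 20.3% were higher and 40.5% lower. The median between them was −0.11, beside −0.12 over all genes.

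B2m, the light chain of every class I molecule and the most abundant member, was lower in MHCII-hi. It had 922, 886 and 905 FPKM in MHCII-hi, against 1322, 1294 and 1312 FPKM in MHCII-lo. The fractions stood far apart relative to their spread, with means of 904 ± 17.9 FPKM in MHCII-hi and 1309 ± 13.9 FPKM in MHCII-lo (SD, n = 3 each). The log2 fold change was −0.53 (SE 0.0179, limma adjusted p = 7.50e-07), a fall of 30.9%, and 8.83% of tested genes had a lower one. Because B2m fell further than H2-K1, and H2-D1 rose, both ratios to B2m were higher in MHCII-hi. The ratio of H2-D1 to B2m was 0.402 ± 0.00756 in MHCII-hi and 0.255 ± 0.00472 in MHCII-lo, a log2 difference of 0.66 (SD, n = 3 each, as for all ratios). The ratio of H2-K1 to B2m was 0.211 ± 0.00395 in MHCII-hi and 0.177 ± 0.00300 in MHCII-lo, a log2 difference of 0.25. Neither ratio overlapped between fractions (exact permutation p = 0.1 each, adjusted 0.117). B2m, at chromosome 2, 122147686 to 122153083 on the plus strand, lies wholly within Patl2 on the other strand. The kit keeps strand, but the sources used here do not say if the quantification did, so reads of genes that overlap on opposite strands may not have been told apart.

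**Figure D2:**
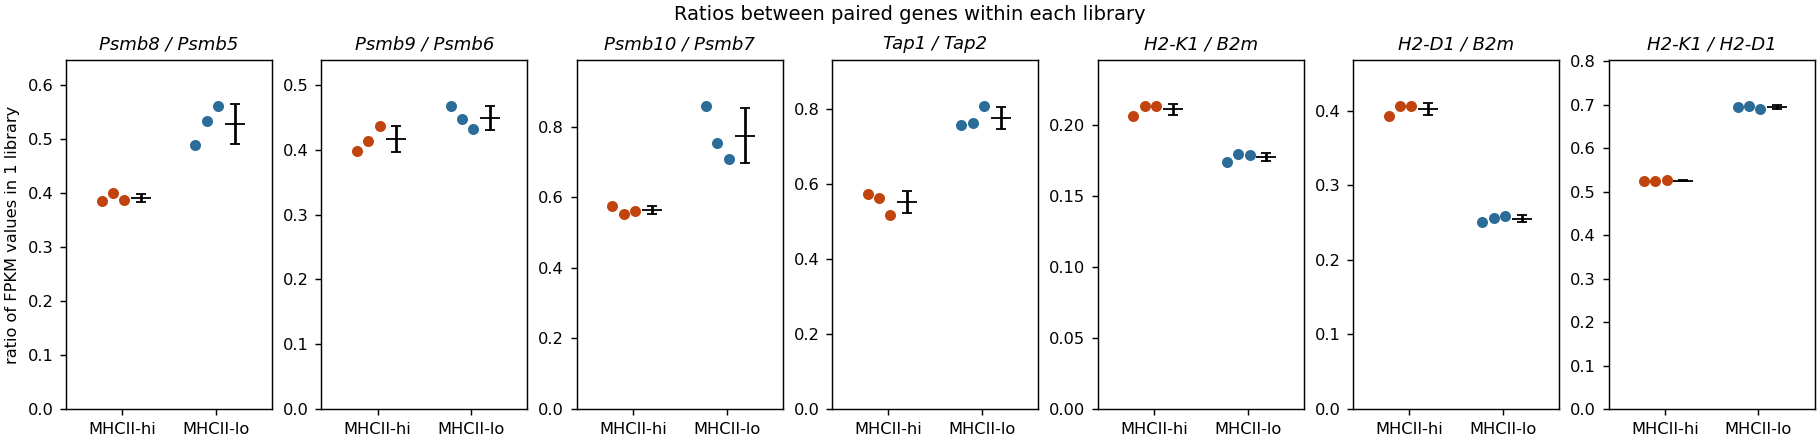
The 7 within-library ratios of FPKM (vertical axes from 0, a scale per ratio), MHCII-hi left of MHCII-lo, with points for libraries and bars for the mean ± SD of 3. Only Psmb9 to Psmb6 overlaps between fractions, and the ratios of the heavy chains to B2m are higher in MHCII-hi while the other 5 have lower means.

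Among the other class I and class I-like heavy chains, 13 of 19 were tested, of which 2 were higher and 8 lower, with a median of −0.32. The shares over all tested genes were 20.3% higher and 40.5% lower. The higher heavy chains of this list were H2-Q10 and H2-T24. H2-Q10, whose product is known as a secreted class I molecule, was at 5.16 ± 0.247 FPKM in MHCII-hi and 1.01 ± 0.106 FPKM in MHCII-lo. H2-T24 was at 10.9 ± 0.841 FPKM in MHCII-hi and 4.88 ± 0.580 FPKM in MHCII-lo. Their log2 fold changes were 1.62 and 1.02 (limma adjusted p = 2.00e-06 and 6.64e-05). The deepest fall was in Fcgrt, the neonatal Fc receptor that recycles IgG and pairs with B2m, at 2.20 ± 0.0954 FPKM in MHCII-hi and 9.72 ± 0.549 FPKM in MHCII-lo (−1.74, limma adjusted p = 5.22e-07). H2-M3, which presents formylated peptides, fell by 0.93, and Cd1d1, which presents lipids to NKT cells, fell by 0.55. H2-T3 and H2-M2 were listed at 0 in every library. Family members with much shared sequence, such as H2-Q7 (34.9% of windows), H2-T22 (44.7%) and H2-T10 (42.9%), are uncertain. The same holds for H2-Q6 (32%), H2-T23 (28.8%) and H2-Q4 (24.3%), and for the fall of Cd1d1, with 25.8% of windows found in another gene.

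**Figure D3:**
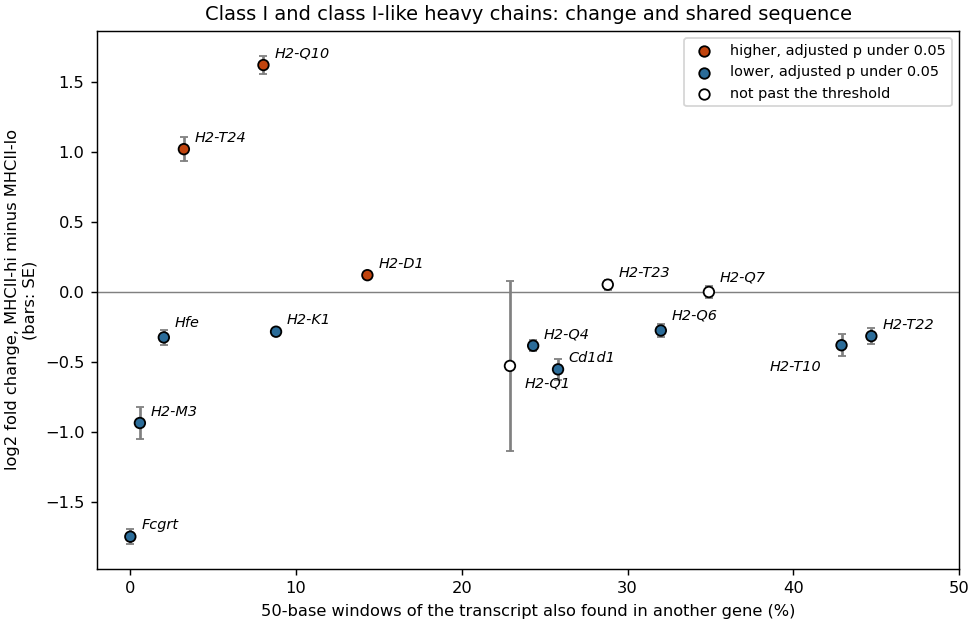
Log2 fold change (MHCII-hi minus MHCII-lo, bars are SE) of the 2 classical and 13 other tested heavy chains against the percent of their 50-base windows found in another gene. The 3 higher genes, H2-Q10, H2-T24 and H2-D1, lie at 8.03, 3.23 and 14.3% on the horizontal axis.

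In the peptide transporter, Tap1 fell and Tap2 stayed close to the middle of all genes. Tap1, the first chain of the transporter, had 15.1, 14.5 and 13.3 FPKM in MHCII-hi, against 20.9, 22.4 and 22.8 FPKM in MHCII-lo. Every MHCII-hi library was low, with a log2 fold change of −0.59 (SE 0.0554, limma adjusted p = 0.000121) and a fall of 35.0%. Tap2, its partner chain, had 26.4, 25.9 and 25.8 FPKM in MHCII-hi, against 27.6, 29.5 and 28.2 FPKM in MHCII-lo. The fractions did not overlap, but the gap was small, with a log2 fold change of −0.12 (SE 0.0330, limma adjusted p = 0.0162) and 49.7% of tested genes below it. With libraries scaled by median ratios, Tap2 was at 0.005 (limma adjusted p = 0.911), so its call rests on the scaling. The ratio of Tap1 to Tap2 was 0.551 ± 0.0293 in MHCII-hi and 0.775 ± 0.0285 in MHCII-lo, a log2 difference of −0.49 with no overlap (exact permutation p = 0.1, adjusted 0.117). The 2 chains pair in the transporter, and their transcripts were 64.3% identical, with 0.861% and 0.737% of 50-base windows found in another gene.

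Tapbp encodes tapasin, which bridges the transporter and the empty heavy chain. It had 24.5, 23.9 and 25.3 FPKM in MHCII-hi, against 29.7, 30.02 and 28.9 FPKM in MHCII-lo. All MHCII-hi libraries were low, with a log2 fold change of −0.26 (SE 0.0327, limma adjusted p = 0.000502). Tapbp overlaps Zbtb22 by 3422 bases on the same strand, so reads from there cannot be told apart by strand. The loading and folding helpers listed around it were lower for 5 of 8 tested genes and higher for 0, with a median of −0.20. With median-ratio scaling 4 were lower and 2 higher. Over all tested genes, 40.5% were lower and 20.3% higher as deposited, and 25.9% and 28.2% with median-ratio scaling. Canx, the chaperone calnexin, averaged 95.1 ± 1.83 FPKM in MHCII-hi and 119 ± 0.924 FPKM in MHCII-lo (−0.33, limma adjusted p = 2.20e-05). Erap1, the aminopeptidase that trims peptides in the endoplasmic reticulum, fell by 0.30 and Bcap31, an export factor, by 0.29. Calr, the chaperone calreticulin of the loading complex, was at −0.02 (limma adjusted p = 0.254), and the tapasin-related Tapbpl at −0.0025 (limma adjusted p = 0.967).

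All 3 immunoproteasome subunits were lower in MHCII-hi. Psmb8, the inducible counterpart of Psmb5 with chymotrypsin-like activity, had 26.9, 25.2 and 26.5 FPKM in MHCII-hi, against 35.4, 36.0 and 36.9 FPKM in MHCII-lo. Psmb9, the inducible counterpart of Psmb6, had 12.3, 12.1 and 12.3 FPKM in MHCII-hi, against 16.5, 17.1 and 16.0 FPKM in MHCII-lo. Psmb10, the inducible counterpart of the trypsin-like Psmb7, had 17.7, 17.3 and 17.1 FPKM in MHCII-hi, against 31.4, 28.1 and 28.5 FPKM in MHCII-lo. In each gene the 3 MHCII-hi libraries were low and the fractions stood apart. The log2 fold change was −0.72 for Psmb10 (SE 0.0464, limma adjusted p = 1.84e-05), −0.45 for Psmb8 (SE 0.0342, limma adjusted p = 4.28e-05) and −0.41 for Psmb9 (SE 0.0352, limma adjusted p = 7.83e-05). Psmb10 had the deepest fall of the 10 members, 40.8% in mean FPKM, and 3.91% of all tested genes had a lower fold change. Psmb10, at chromosome 8, 105935735 to 105938444 on the minus strand, lies over its whole length opposite the antisense gene Gm16156, and Psmb9 and Tap1 overlap by 212 bases on opposite strands at chromosome 17.

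The constitutive subunits that these replace were set beside them. Psmb5 averaged 67.0 ± 3.60 FPKM in MHCII-hi and 68.5 ± 3.58 FPKM in MHCII-lo, which did not pass the test (−0.03, limma adjusted p = 0.619). Psmb6 averaged 29.4 ± 1.38 FPKM in MHCII-hi and 36.8 ± 1.46 FPKM in MHCII-lo, and Psmb7 30.8 ± 0.451 FPKM in MHCII-hi and 38.0 ± 1.99 FPKM in MHCII-lo. Both were lower in MHCII-hi, with log2 fold changes of −0.32 for Psmb6 and −0.29 for Psmb7 (limma adjusted p = 0.000866 and 0.000809). The ratio of Psmb8 to Psmb5 was 0.391 ± 0.00762 in MHCII-hi and 0.528 ± 0.0369 in MHCII-lo. The ratio of Psmb10 to Psmb7 was 0.563 ± 0.0116 in MHCII-hi and 0.774 ± 0.0776 in MHCII-lo. Both ratios stood apart, by −0.43 and −0.46 in log2 (exact permutation p = 0.1 each, adjusted 0.117). The ratio of Psmb9 to Psmb6 was 0.417 ± 0.0198 in MHCII-hi and 0.450 ± 0.0184 in MHCII-lo, and it overlapped between fractions (−0.11, exact permutation p = 0.2, adjusted 0.2). Psmb5 shares 57.1% of its 50-base windows with other genes, 49.4% with Gm3375 alone, so its level and the ratio to it are uncertain.

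The 3 inducible subunits made up 30.2, 30.6 and 30.6% of the FPKM of the 6 catalytic subunits in MHCII-hi, against 36.6, 36.2 and 36.3% in MHCII-lo. This share was lower in every MHCII-hi library than in any MHCII-lo library. The non-catalytic subunits of the core particle were lower for 8 of 11 tested genes and higher for 0, with a median of −0.21; with median-ratio scaling 5 were lower and 0 higher. Psma7 averaged 34.3 ± 0.564 FPKM in MHCII-hi and 51.2 ± 0.243 FPKM in MHCII-lo (−0.56, limma adjusted p = 2.44e-06), and Psmb4 and Psmb1 fell by 0.35 and 0.32. Of the activators, inhibitor and assembly factors, 5 of 10 were lower and 0 higher, with a median of −0.17; with median-ratio scaling 4 were lower and 3 higher. Pomp, the proteasome maturation protein, averaged 13.3 ± 0.212 FPKM in MHCII-hi and 19.8 ± 0.554 FPKM in MHCII-lo (−0.54, limma adjusted p = 1.68e-05). Psme1 and Psme2, the interferon-inducible PA28 activator chains, fell by 0.42 and 0.45, while Psme3, a related activator, was at 0.03 (limma adjusted p = 0.247). The regulatory particle that unfolds substrates had 10 of 18 lower and 0 higher at a median of −0.12, which is that of all genes. With median-ratio scaling it had 3 lower and 2 higher and a median of 0.01, and with median centring 3 lower and 0 higher. Psmd8, Psmc3 and Psmd7 had its deepest falls, by 0.38, 0.27 and 0.22. Beside these list counts, 40.5% of all tested genes were lower and 20.3% higher as deposited. With median-ratio scaling the shares were 25.9% and 28.2%.

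**Figure D4:**
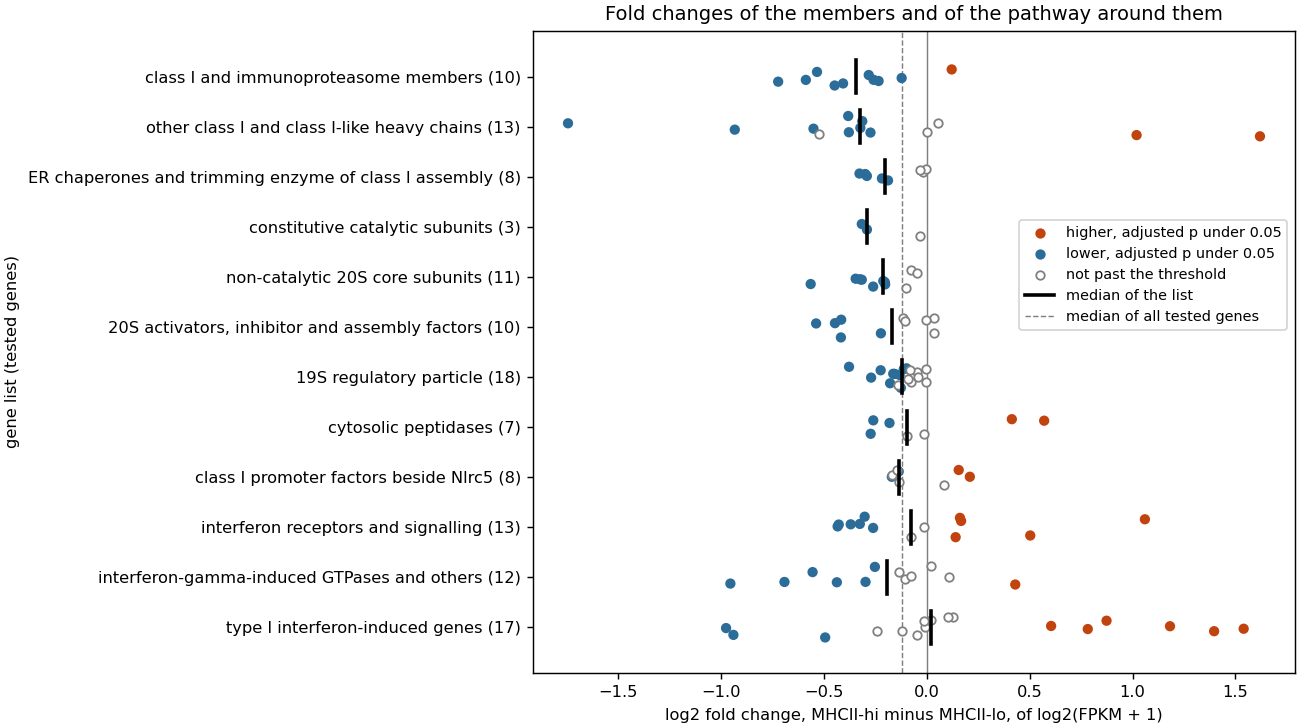
Log2 fold change (MHCII-hi minus MHCII-lo) of each tested gene of the 10 members and of 11 lists around them, with bars at list medians and a dashed line at the median of all tested genes. The members' median of −0.34 lies left of the dashed line at −0.12, and that of the type I interferon list, at 0.02, lies right of it. The list labelled cytosolic peptidases also holds the endosomal Lnpep.

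Peptidases that trim or destroy proteasome products, mostly cytosolic, were higher for 2 and lower for 3 of 7 tested genes. Of all tested genes, 20.3% were higher and 40.5% lower. Npepps, the puromycin-sensitive aminopeptidase, averaged 23.1 ± 0.777 FPKM in MHCII-hi and 15.2 ± 0.201 FPKM in MHCII-lo (0.57, limma adjusted p = 1.39e-05), and Lnpep, an endosomal aminopeptidase, was higher by 0.41 (limma adjusted p = 5.34e-05). Blmh, Nln and Lap3 fell by 0.27, 0.26 and 0.18. The median of this list, −0.10, turned to 0.02 with median-ratio scaling, and the fall of Lap3 was then not called (limma adjusted p = 0.362), nor without MHCII-hi replicate 2 or 3 or MHCII-lo replicate 1 or 2 (limma adjusted p = 0.0606 to 0.065).

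Nlrc5, the transactivator of class I genes, was the least abundant member. It had 4.02, 4.05 and 4.19 FPKM in MHCII-hi, against 5.28, 4.75 and 4.93 FPKM in MHCII-lo. The MHCII-hi libraries were all low, with a log2 fold change of −0.23 (SE 0.0507, limma adjusted p = 0.0063), but at −0.13 with median-ratio scaling the fall was not called (limma adjusted p = 0.0724). Its relative Ciita, the class II transactivator, was under the 1 FPKM limit, with 0.52, 0.48 and 0.63 FPKM in MHCII-hi, against 0.23, 0.25 and 0.25 FPKM in MHCII-lo. The Ciita values did not overlap and lay in the other direction from those of Nlrc5. Rfx5, the subunit of the RFX complex that binds the X box beside NLRC5, averaged 4.29 ± 0.501 FPKM in MHCII-hi and 4.94 ± 0.445 FPKM in MHCII-lo (−0.17, limma adjusted p = 0.134). Of the 8 tested promoter factors beside Nlrc5, 2 were higher and 2 lower, against 20.3% higher and 40.5% lower of all tested genes. Nfyb and Atf1 were higher by 0.21 and 0.16, and Nfya and Nfyc fell by 0.17 and 0.14. In general NF-Y binds CCAAT boxes and ATF1 X2 cores, but binding to the promoters above was not measured. The calls of Nfya and Nfyc were lost with median-ratio scaling (limma adjusted p = 0.232 and 0.810), and that of Nfyc also without MHCII-hi replicate 2 or 3 or MHCII-lo replicate 2 or 3. That of Atf1 was lost without any library but MHCII-hi replicate 1, with limma adjusted p of 0.0636 to 0.0871.

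**Figure D5:**
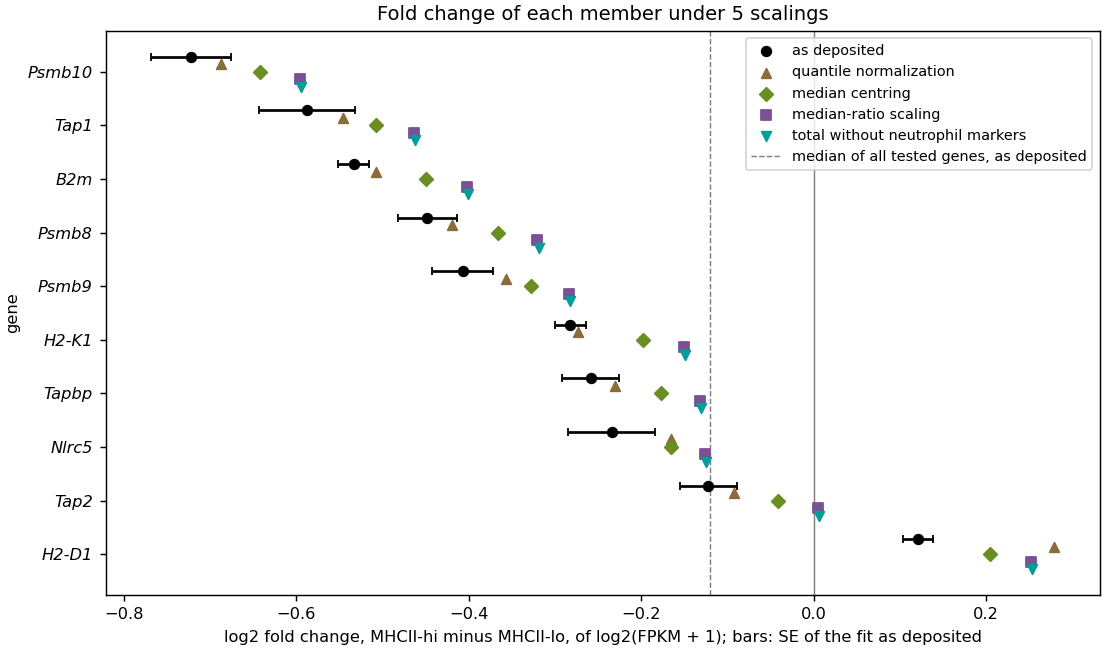
Log2 fold change (MHCII-hi minus MHCII-lo) of the 10 members from the values as deposited (bars are SE) and under 4 other scalings. H2-D1 is right of 0 and 8 members are left of 0 under all 5, while Tap2 crosses 0.

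Interferon receptors and signalling genes were split, with 5 higher and 6 lower of 13 tested, beside 20.3% and 40.5% of all tested genes. Irf1, an interferon-induced factor that drives Tap1 and Psmb9, averaged 14.5 ± 0.635 FPKM in MHCII-hi and 19.9 ± 0.301 FPKM in MHCII-lo (−0.43, limma adjusted p = 9.86e-05). The kinases of the interferon-gamma receptor differed in direction, with log2 fold changes of 0.50 for Jak1 and −0.37 for Jak2. Socs3, an inhibitor of cytokine signalling, averaged 17.2 ± 0.360 FPKM in MHCII-hi and 7.71 ± 0.456 FPKM in MHCII-lo (1.06, limma adjusted p = 2.82e-06), and Ifnar2, a receptor chain for type I interferon, fell by 0.43. The list's median was −0.08 and turned to 0.04 with median-ratio scaling.

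Genes known to be induced by interferon-gamma were lower for 6 and higher for 1 of 12 tested, beside 40.5% and 20.3% of all tested genes. Their median was −0.19. Gbp3, a guanylate-binding GTPase, averaged 7.06 ± 0.289 FPKM in MHCII-hi and 14.6 ± 0.0651 FPKM in MHCII-lo (−0.95, limma adjusted p = 1.90e-06). Cxcl10, a chemokine, fell by 0.69 and Tgtp2, another GTPase, by 0.56, while Cd274, which encodes PD-L1, was higher by 0.43 (limma adjusted p = 0.0109). Genes known from type I interferon were higher for 6 and lower for 3 of 17 tested, beside 20.3% and 40.5% of all tested genes. Their median was 0.02. Oas3 and Oas2, sensors of double-stranded RNA, and Rtp4 were higher by 1.54, 1.40 and 1.18. Bst2 (tetherin), Mx1 and Usp18 fell by 0.98, 0.94 and 0.49. Bst2, which is also among the dendritic cell markers, averaged 20.1 ± 1.54 FPKM in MHCII-hi and 40.5 ± 0.745 FPKM in MHCII-lo. Over the 11 lists around the members, 120 of 137 genes were tested, of which 58 (48.3%) were lower and 18 (15.0%) higher, beside 40.5% and 20.3% of all tested genes.

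The members' calls were read again with other scalings, since all values are shares of a library. With median-ratio scaling, 54.1% of tested genes passed, 25.9% were lower and 28.2% higher, the median of all genes was −0.01, and 7 members were lower and 1 higher. With the total taken without neutrophil markers, 25.8% of tested genes were lower and 28.3% higher, with the same split of the members. With median centring, 55.6% passed, 30.8% as lower and 24.7% as higher, and 8 members were lower and 1 higher. With quantile normalization, 56.8% passed, 33.4% as lower and 23.4% as higher, and 9 members were lower and 1 higher. Psmb10, Tap1, B2m, Psmb8, Psmb9, H2-K1 and Tapbp were lower and H2-D1 was higher in all 16 alternatives. Over these, the log2 fold change of Psmb10 ranged between −0.75 and −0.60, that of B2m between −0.55 and −0.40 and that of H2-D1 between 0.11 and 0.28.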

How the data were processed

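For each library the authors deposited gene names with a single value, whose unit was inferred to be FPKM, since it has 2 decimals and sums that differ between libraries; no header names it. The submitters' processing notes name fastp, HISAT2, StringTie and GRCm38 (mm10), without versions; per the labels' protocols, libraries came from a stranded mRNA kit. Symbols repeated in 70 extra rows stayed in the fit, and a member's row would be the one of highest mean. Genes averaging at least 1 FPKM (12049) were compared as log2(FPKM + 1) using the intensity-trend fit of limma 3.58.1 (R 4.3.3) on all 6 libraries and Benjamini-Hochberg adjustment at 0.05. The fit was tested on simulated data with few changed genes and no planted shift in library composition. That test does not bear on the choice of scaling. Ratios were tested with exact permutation in scipy 1.17.1 (Python 3.11.15), and sequences aligned with Biopython 1.88. Protein identity was not analysed here.

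The members and lists were chosen with earlier results of these data known. The text names all members, the genes of the 7 ratios, up to 3 called genes in each direction of each list by size of change, the regulators Irf1, Rfx5 and Ciita (a further gene of the rule is not reported here) and the class II genes; Hfe, H2-Q and H2-T genes, Calr, Tapbpl, Psme3 and the marker genes were named after their values were seen. The 16 alternatives changed the pseudocount, the limit on low values, the scaling or the intensity trend, added a replicate block, or left out a library.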

Additional observations from a re-analysis of the deposited data

How the results depend on the processing

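Of the 10 members, 8 kept direction and call in all 16 alternatives. Genes lower in MHCII-hi numbered 4883 as deposited, 3123 with median-ratio scaling and 3108 with the total without neutrophil markers, and genes higher numbered 2451, 3394 and 3409. Median centring gave 2982 higher and 3714 lower, and quantile normalization 2819 and 4025. Leaving out 1 library gave 2211 to 2284 higher and 4336 to 4515 lower. Of the pathway lists around the members, 18 genes were higher as deposited, 30 with median-ratio scaling, 30 without neutrophil markers and 10 with a mean of at least 5 FPKM, which tests fewer genes.

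Under median-ratio scaling and without neutrophil markers, some values turned sign: Tap2 to 0.00504 and 0.00637, Psmb5 to 0.098 and 0.0998, and the medians of the regulatory particle to 0.0106 and 0.012, of the peptidases to 0.0224 and 0.0237 and of interferon signalling to 0.036 and 0.0372. Psmb5 was also at 0.00303 with quantile normalization and 0.0516 with median centring, and ranged between −0.0621 (without MHCII-lo replicate 3) and 0.0126 (without MHCII-hi replicate 2) when 1 library was left out. The median of the promoter factors was 0.0843 at 5 FPKM and above, and that of type I interferon genes ranged between −0.000757 (without MHCII-lo replicate 3) and 0.099 (without MHCII-hi replicate 2). Beyond the change of scale, genes or libraries that each alternative makes, the cause was not tested.

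Replicate numbers are shared between fractions, and the labels do not say whether they pair the libraries. The deviations of same-numbered libraries correlated at −0.0418, −0.0401 and −0.0422, and no library correlated best with its own number. With so few libraries per fraction, such correlations cannot show whether equal numbers mark a shared source. With the replicate block, 2309 genes were higher and 4662 lower, and 9 members were lower and 1 higher. Depth is unknown, so counting error could not be given. With the 250 bases before the start site alone, as many members held each motif, although single matches of H2-K1 and B2m after the start site were lost.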
